A study of Mus musculus with 6 samples.

Results

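Fatty acid oxidation enzymes were followed as 9 genes: Cpt1a, Cpt1b, Cpt2, Acadvl, Acadl, Acadm, Hadha, Hadhb and Etfdh. They were chosen by gene symbol, and all 9 were found among the 32285 genes of each library. Their unique molecular identifiers (UMIs, each standing for a captured transcript) were counted by single-nucleus RNA sequencing of subcutaneous white adipose tissue. The CKO group held 3 mice of genotype GPSM1ΔTreg, in which Gpsm1, encoding a G-protein signalling modulator, is deleted in regulatory T cells. The FLOX group held 3 GPSM1f/f mice, which carry the floxed gene without that deletion. All 6 mice were fed high-fat food from 7 weeks of age, and the sample labels give its duration as 12 weeks, within the 5 to 12 weeks of the protocol text. The sources used here name neither the Cre driver nor the deleted exons. The series asks how loss of Gpsm1 in regulatory T cells affects fat tissue, so both the level of each gene in each cell class and the CKO over FLOX difference are given.

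Long-chain fatty acids enter mitochondria as carnitine esters. Carnitine palmitoyltransferase 1 on the outer membrane makes the ester and is the step that malonyl-CoA inhibits; Cpt1a encodes the form best known from liver and Cpt1b the form best known from muscle. Carnitine palmitoyltransferase 2 (Cpt2) on the inner membrane turns the ester back into acyl-CoA. The acyl-CoA dehydrogenases for very long (Acadvl), long (Acadl) and medium (Acadm) chains then begin each round of β-oxidation, and the trifunctional protein, built of Hadha and Hadhb subunits, completes it for long chains. Electrons from the dehydrogenases pass through the electron transfer flavoprotein to its ubiquinone oxidoreductase, Etfdh. White fat cells mainly store fatty acids but keep this pathway, and several of its genes are textbook targets of PPAR nuclear receptors.

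RefSeq promoter windows, from 250 bases before to 50 after each start on GRCm38.p6, matched 8 of the 9 members, all but Cpt1b. Those of Hadha and Hadhb are shown because the pair is transcribed in opposite directions from 1 shared stretch: the Hadha window is chr5:30154931-30155230 on the minus strand, the Hadhb window is chr5:30155003-30155302 on the plus strand, and the 2 share 228 bases. Those of Acadm (chr3:153944594-153944893, minus strand), Acadvl (chr11:70015379-70015678, minus strand) and Cpt1a (chr19:3323051-3323350, plus strand) are shown because these genes hold the class and group differences described below. All are written 5′ to 3′ in the direction of transcription, and capitals mark matches to the motifs GGGCGG (a GC box), AGGTCA (a nuclear receptor half-site) and CCAAT on either strand.
Hadha: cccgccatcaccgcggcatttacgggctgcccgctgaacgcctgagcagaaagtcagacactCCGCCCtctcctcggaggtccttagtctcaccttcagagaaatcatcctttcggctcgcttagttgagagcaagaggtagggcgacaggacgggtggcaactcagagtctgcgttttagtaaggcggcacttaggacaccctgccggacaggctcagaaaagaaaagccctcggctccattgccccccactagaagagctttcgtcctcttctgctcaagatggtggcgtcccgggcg
Hadhb: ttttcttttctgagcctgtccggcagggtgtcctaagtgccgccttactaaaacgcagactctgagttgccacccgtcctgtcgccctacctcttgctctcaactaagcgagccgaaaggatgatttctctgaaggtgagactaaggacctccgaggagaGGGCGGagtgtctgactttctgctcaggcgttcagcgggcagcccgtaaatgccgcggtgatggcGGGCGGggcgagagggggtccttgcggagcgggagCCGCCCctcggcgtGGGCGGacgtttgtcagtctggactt
Acadm: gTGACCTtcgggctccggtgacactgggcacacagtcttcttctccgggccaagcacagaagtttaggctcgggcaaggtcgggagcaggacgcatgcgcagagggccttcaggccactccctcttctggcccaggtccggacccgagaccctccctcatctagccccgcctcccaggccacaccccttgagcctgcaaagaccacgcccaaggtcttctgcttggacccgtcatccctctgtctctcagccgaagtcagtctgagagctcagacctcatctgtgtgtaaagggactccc
Acadvl: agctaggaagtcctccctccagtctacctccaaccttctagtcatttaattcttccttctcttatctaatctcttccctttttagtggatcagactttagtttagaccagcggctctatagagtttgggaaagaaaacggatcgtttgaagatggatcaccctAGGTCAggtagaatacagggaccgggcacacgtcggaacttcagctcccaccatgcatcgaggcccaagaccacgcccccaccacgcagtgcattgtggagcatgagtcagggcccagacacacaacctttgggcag
Cpt1a: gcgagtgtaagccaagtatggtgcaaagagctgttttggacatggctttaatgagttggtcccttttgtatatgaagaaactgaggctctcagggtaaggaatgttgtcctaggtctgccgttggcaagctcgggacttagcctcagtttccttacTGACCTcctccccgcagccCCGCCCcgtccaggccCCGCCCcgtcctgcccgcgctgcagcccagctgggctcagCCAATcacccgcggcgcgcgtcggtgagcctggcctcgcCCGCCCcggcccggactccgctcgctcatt

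GGGCGG was found in 6 of the 8 windows (Cpt1a, Cpt2, Acadl, Hadha, Hadhb and Etfdh), against 35.66% of 32851 promoter windows of the same length. The only match of the Hadha window, at -188, is the same site as the Hadhb match at -90, so it counts for both. The half-site AGGTCA was found in Cpt1a, Acadvl and Acadm, against 16.26% of windows, and it begins at position -94 in Cpt1a, -87 in Acadvl and -249 in Acadm relative to the start. CCAAT was found in Cpt1a and Etfdh, against 37.41% of windows. The paired half-site AGGTCANAGGTCA, the extended half-site TNAAGGTCA and TATAAA were in none of the 8 windows, against 0.04%, 1.28% and 13.62% of all windows. These are matches of letters only.

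After filtering, 56222 of 65162 barcodes were kept as nuclei, 9114 to 9730 per library, with 33193772 to 35496229 UMIs in CKO libraries and 40787592 to 48331651 in FLOX libraries. Each pair of libraries shared 24 to 44 barcodes. Of 30 clusters, 24 could be named from marker genes and 6 could not; 9 classes had enough nuclei in every library for a comparison. The classes differed in abundance: B cell-like nuclei gave 17.5%, 4.62% and 9.32% of UMIs in CKO libraries 1 to 3, against 0.544%, 0.297% and 2.24% in FLOX libraries 1 to 3, and adipocyte-like nuclei gave 43.5%, 53.3% and 46.0% in CKO, against 57.6%, 64.5% and 53.1% in FLOX. An unnamed cluster led by Slco1b2, Alb and Cps1 held 32.0% of the nuclei of FLOX library 3, so whole-tissue values are also given without it. Gpsm1 stood at 38.3, 38.3 and 33.7 CPM (UMIs per 1000000 UMIs) in CKO tissue, against 27.2, 31.3 and 24.1 CPM in FLOX tissue, and in T cell-like nuclei, regulatory or not, at 20.5, 25.03 and 21.5 CPM in CKO (96 UMIs in all), against 36.1, 45.0 and 18.4 CPM in FLOX (25 UMIs). Tags at the 3′ end check the deletion only if they lie in the deleted part, which is not known here.

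The 9 genes fell into different cell-class patterns (the plot of member levels by class). Levels are CPM of the UMIs summed over a class in a library, given as the mean ± SD of all 6 libraries, as a description without a test. By mean, Acadm, Acadl, Cpt2 and Etfdh were highest in adipocyte-like nuclei, Cpt1a in macrophage-like, Cpt1b and Hadha in mural-like, and Acadvl and Hadhb in endothelial-like nuclei. Endothelial-like nuclei were the highest class for Acadvl in 0 of 6 libraries. For Hadha, mural-like nuclei were highest in 2 libraries and adipocyte-like nuclei in 3. The sources used here do not say whether introns and strand entered the authors' counting, so levels of different genes are not set against each other.

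**Figure D1:**
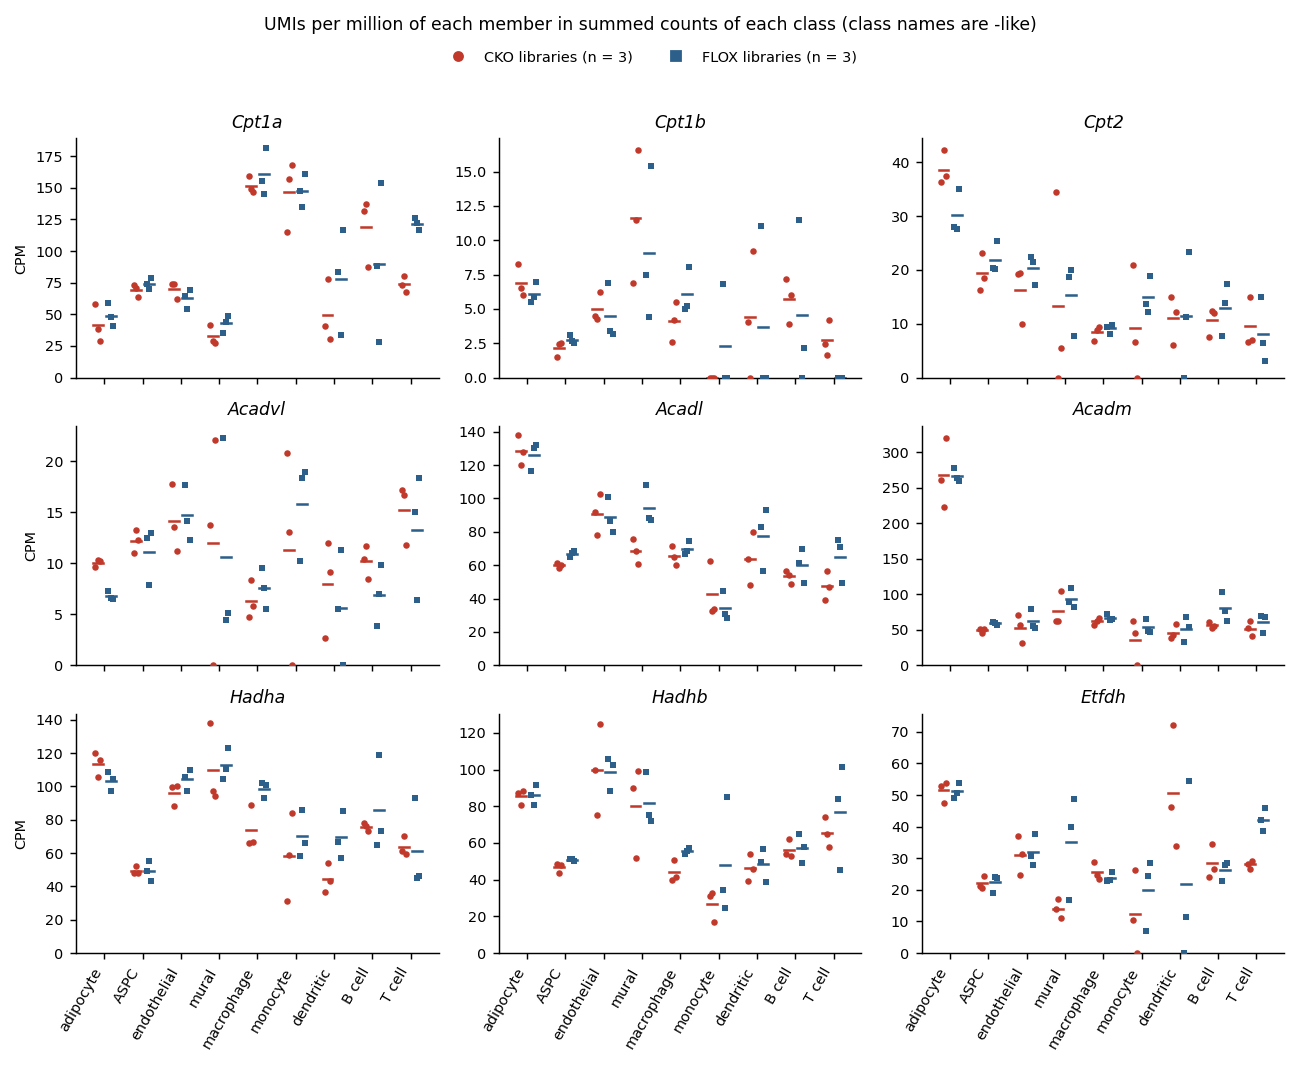
CPM (y axis, a panel per gene) of the 9 fatty acid oxidation enzymes in the 9 cell classes compared (x axis); red circles are CKO libraries, blue squares FLOX libraries, and horizontal lines their means. Acadm in adipocyte-like nuclei lies between 222.5 and 320.9 CPM, above every library of every other class.

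Of the carnitine shuttle genes, Cpt1a (chromosome 19, 3322334 to 3385733, plus strand, mm10) stood at 155.9 ± 13.5 CPM in macrophage-like and 147.1 ± 19.7 CPM in monocyte-like nuclei, and at 45.4 ± 11.7 CPM in adipocyte-like nuclei. Neighbours in its order of 9 classes overlapped throughout; between those ends lay B cell-like, T cell-like, ASPC-like (adipose stem and progenitor cell-like), endothelial-like and dendritic-like nuclei, and mural-like nuclei were lowest at 37.7 ± 8.6 CPM. Cpt1b (chromosome 15, 89416405 to 89425863, minus strand) was low in every class compared, at most 10.4 ± 4.9 CPM in mural-like nuclei and 6.52 ± 1.0 CPM in adipocyte-like nuclei. It reached 87.0 CPM in a pooled skeletal muscle-like cluster of 107 nuclei, 70 of them from CKO library 2 and 36 from FLOX library 3. Cpt1b overlaps Gm44502 on the same strand, so its reads could be split.

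Cpt2 (chromosome 4, 107903981 to 107923610, minus strand) stood at 34.4 ± 5.7 CPM in adipocyte-like nuclei. ASPC-like nuclei came next at 20.7 ± 3.2 CPM without overlap, although mural-like nuclei of CKO library 1 reached 34.5 CPM, and macrophage-like nuclei were lowest at 8.77 ± 1.1 CPM. Cpt1a and Cpt2, which act in sequence, were thus ordered oppositely between adipocyte-like and macrophage-like nuclei.

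Among the dehydrogenases, Acadm (chromosome 3, 153922357 to 153944632, minus strand) was the clearest adipocyte gene: 267.7 ± 31.9 CPM in adipocyte-like nuclei, against 85.0 CPM in mural-like nuclei, the next class, and 44.9 CPM in monocyte-like nuclei, the lowest. Acadl (chromosome 1, 66830839 to 66863277, minus strand) also stood apart in adipocyte-like nuclei, at 127.4 ± 7.8 CPM, with endothelial-like nuclei next at 89.9 CPM and monocyte-like nuclei lowest at 38.7 ± 12.9 CPM. A pooled epithelial-like class too small for comparison held 216 CPM of Acadl. A processed pseudogene, Gm15793, overlaps Acadl on the same strand and could take some of its reads. Acadvl (chromosome 11, 70010183 to 70015411, minus strand), which overlaps Dvl2 on the other strand, lay close together across classes, from 14.5 ± 2.8 CPM in endothelial-like to 6.80 ± 4.9 CPM in dendritic-like nuclei, with adipocyte-like nuclei at 8.45 ± 1.8 CPM; all neighbours overlapped.

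The subunit genes of the trifunctional protein start 86 bases apart on chromosome 5 in GENCODE, Hadha (30118304 to 30155162, minus strand) and Hadhb (30155248 to 30184593, plus strand). Their RefSeq starts, used for the promoter windows, lie 273 bases apart. Hadha was similar in mural-like (111.2 ± 16.7 CPM), adipocyte-like (108.6 ± 8.2 CPM) and endothelial-like nuclei (100.01 ± 7.5 CPM), and lowest in ASPC-like nuclei (49.3 ± 4.1 CPM). Hadhb led in endothelial-like (99.4 ± 16.7 CPM) and adipocyte-like nuclei (85.9 ± 4.4 CPM) and was lowest in monocyte-like nuclei (37.4 CPM). In macrophage-like nuclei Hadha stood at 86.1 ± 16.2 CPM and Hadhb at 49.9 CPM. Etfdh (chromosome 3, 79603788 to 79629500, minus strand) stood at 51.3 ± 2.7 CPM in adipocyte-like nuclei and lowest at 16.1 CPM in monocyte-like nuclei; some libraries of dendritic-like (36.3 ± 27.0 CPM) and mural-like nuclei (24.6 ± 15.7 CPM) reached the range of the top class. Gm37973 overlaps Etfdh on the same strand.

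Adipocyte-like nuclei held 53.0% ± 7.7 of all UMIs but 81.7% ± 4.8 of those of Acadm (SD, n = 6 libraries). Their share was 70.8% for Cpt2, 68.0% for Etfdh, 67.0% for Acadl, 62.2% for Hadha, 62.1% for Hadhb and 61.1% for Cpt1b. It was 45.7% for Acadvl and 34.1% for Cpt1a. Macrophage-like nuclei held 24.5% of Cpt1a UMIs, against 11.04% of all UMIs.

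Across the 54 class-by-library sums, which share libraries and depth, Pearson's r of log2(CPM + 1) described which of 10381 genes were most like each member. Acadm was most like Pank3 (r = 0.90), Ppip5k1 (0.88) and Tob2 (0.86), and Cpt1a most like Zbtb7a (0.84), Stard5 (0.79) and Zswim6 (0.78). Acadl was most like Klhdc8b (0.80), Tln2 (0.78) and Zc2hc1a (0.77), Hadhb most like Tmem245 (0.80), Mxd4 (0.76) and Crim1 (0.76), and Hadha most like Gm42556 (0.73), Dcbld1 (0.72) and Fry (0.72). For Etfdh these genes were Gid4, Sc5d and Gclc (0.72 to 0.73), for Cpt2 Sc5d, Pef1 and Mbd1 (0.65 to 0.67), and for Cpt1b Parm1, Cystm1 and Mylk (0.68 each). Acadvl was most like Uqcr10, a subunit of respiratory complex III (0.69), Snrpd3 (0.67) and Phb (0.66). Hadha and Hadhb had r = 0.50 with each other, Acadm had 0.62 with Etfdh and 0.61 with both Acadl and Cpt2, and r of Cpt1a was negative with all 8 other members (-0.53 to -0.02).

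In whole tissue, no member passed the test between CKO and FLOX, but 8 of the 9 had a log2 fold change below 0, with a median of -0.16, against 48.5% of tested genes below 0 and a median of 0.01 over all of them. By edgeR's quasi-likelihood test with Benjamini-Hochberg adjustment, 0.0415% of 19282 genes tested were called at an adjusted p under 0.05; the unadjusted p was under 0.05 for 5 members and for 5491 genes, and DESeq2 called 3 members. Groups did not overlap for 4 members, against 36.6% of genes: Acadl, Acadm and Hadhb were lower in every CKO library (10.9% of genes were) and Acadvl was higher in every one (25.7% of genes were). The p-values measure the spread between 3 mice per group. In summed tissue, fewer nuclei of a class and less RNA per nucleus cannot be told apart.

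Acadm stood at 144.8, 144.3 and 178.7 CPM in CKO tissue, against 190.5, 192.6 and 185.8 CPM in FLOX tissue. Every CKO library was below every FLOX library, with CKO library 3 near the FLOX range (log2 fold change -0.37 ± 0.10 SE, adjusted p = 0.0736; DESeq2 adjusted p = 0.0144). Acadl stood at 96.3, 96.0 and 91.4 CPM in CKO tissue, against 99.3, 108.9 and 109.0 CPM in FLOX tissue (-0.25 ± 0.07, adjusted p = 0.0794; DESeq2 0.0367). Hadhb stood at 68.9, 68.2 and 69.9 CPM in CKO tissue, against 76.1, 72.5 and 82.7 CPM in FLOX tissue (-0.25 ± 0.07, adjusted p = 0.0817; DESeq2 0.0409). Acadl of CKO libraries 1 and 2 lay close to FLOX library 1, while the 3 CKO values of Hadhb differed by less than 2 CPM.

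Acadvl stood at 10.3, 11.3 and 10.0 CPM in CKO tissue, against 9.41, 7.32 and 9.88 CPM in FLOX tissue (0.16 ± 0.14, adjusted p = 0.487). Hadha had a log2 fold change of -0.16 ± 0.06 and Etfdh one of -0.19 ± 0.07, both with overlapping groups (adjusted p = 0.141 and 0.151). The carnitine acyltransferases differed least, with log2 fold changes of -0.13 ± 0.14 for Cpt1a, -0.05 ± 0.14 for Cpt1b and -0.06 ± 0.15 for Cpt2 and adjusted p of 0.589 to 0.837.

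Cell makeup differed between the same libraries: adipocyte-like nuclei, which hold most Acadm, Acadl and Hadhb UMIs, gave a smaller share of UMIs in the CKO libraries than in FLOX libraries 1 and 2, and B cell-like nuclei a larger one than in all 3 (the plot of whole-tissue and adipocyte-like levels). FLOX library 3 had an adipocyte-like share of 53.1%, against 53.3% in CKO library 2. Its Acadm, Acadl and Hadhb levels lay with the other FLOX libraries. The unnamed Alb cluster, not counted in that share, held 13.5% of the UMIs of FLOX library 3, against 0.0928% to 1.74% in the other libraries. It held 15.1%, 13.2% and 14.7% of the Acadm, Acadl and Hadhb UMIs of FLOX library 3. Summed over adipocyte-, ASPC-, endothelial-, mural- and macrophage-like nuclei alone, an alternative chosen after seeing the data, the log2 fold change was -0.09 for Acadm, -0.08 for Acadl and -0.13 for Hadhb (adjusted p = 0.723, 0.666 and 0.397). Without the unnamed Alb cluster it was -0.37, -0.26 and -0.25, with adjusted p of 0.0700, 0.0830 and 0.0901. The part of makeup in the whole-tissue values was not tested further.

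**Figure D2:**
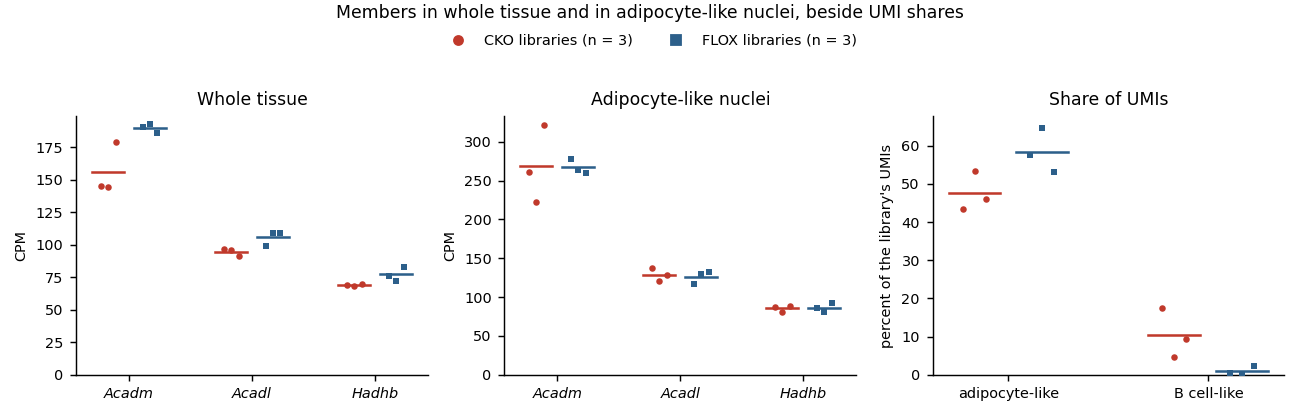
CPM of Acadm, Acadl and Hadhb in whole tissue and in adipocyte-like nuclei, and the percent of each library's UMIs from adipocyte-like and B cell-like nuclei; red circles are CKO libraries, blue squares FLOX libraries, lines their means. The CKO libraries lie below the FLOX libraries for all 3 genes in whole tissue, while in adipocyte-like nuclei the groups overlap.

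In adipocyte-like nuclei the same 3 genes overlapped between groups and no member passed the test, against 2.66% of 15786 genes called; 2 members had an unadjusted p under 0.05. Of all genes, 188 were called higher and 232 lower, or 336 and 153 with the library total alone as scaling. Acadm stood at 261.1, 222.5 and 320.9 CPM in CKO, against 278.2, 263.6 and 259.7 CPM in FLOX (log2 fold change -0.07 ± 0.13, adjusted p = 0.798). CKO libraries 2 and 3 were thus the lowest and the highest of all 6. Acadl, Hadha, Hadhb and Etfdh had log2 fold changes of -0.04, 0.06, -0.08 and -0.06. CPM and overlap of groups rest on library totals, while fold changes use edgeR's TMM factors, so signs near 0 can differ. The log2 ratios of mean CPM were 0.029 for Acadl, 0.0086 for Etfdh and 0.0055 for Acadm. Over all genes the median log2 fold change was 0.01 with TMM and 0.09 with the library total alone.

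**Figure D3:**
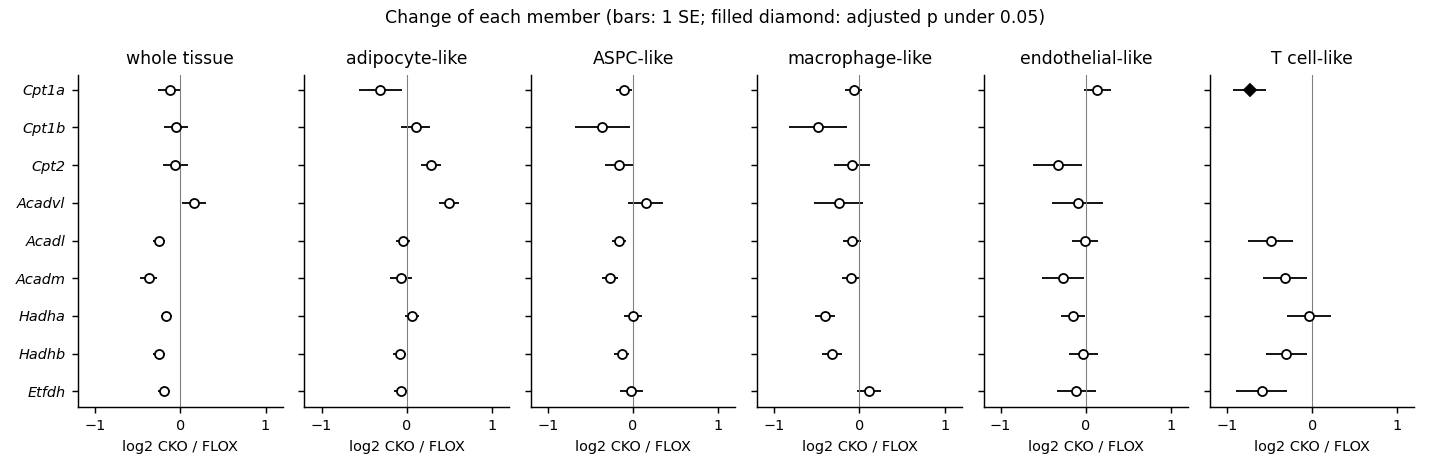
The log2 fold change of CKO over FLOX (x axis, bars ± 1 SE) of the 9 genes (y axis) in whole tissue and 5 cell classes; a filled diamond marks an adjusted p under 0.05. The single filled diamond is Cpt1a in T cell-like nuclei, at -0.73 ± 0.19.

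The groups did not overlap for 2 members in adipocyte-like nuclei, against 30.8% of genes, both higher in CKO as were 21.7% of genes. Acadvl stood at 9.64, 10.3 and 10.3 CPM in CKO adipocyte-like nuclei, against 7.30, 6.61 and 6.51 CPM in FLOX, from 491 and 549 UMIs. Means were 10.1 ± 0.39 CPM in CKO and 6.81 ± 0.43 CPM in FLOX (SD, n = 3 each), and the 2 groups were far apart for their spread (log2 fold change 0.50 ± 0.12, adjusted p = 0.0686). It passed with the library total alone as scaling (0.57, adjusted p = 0.0486) and with DESeq2 (0.49, adjusted p = 0.0478), and the log2 fold change was positive in all 16 alternatives (0.34 to 0.57, adjusted p 0.0478 to 0.294). The unnamed Alb cluster, with 9 of the 10 adipocyte markers up but a rival list as well, is left out of these values. It held 29.3% of Acadvl UMIs and 18.3% of Cpt2 UMIs of FLOX library 3, against 13.5% of all UMIs of that library. In the other libraries it held 0% to 2.66% of Acadvl UMIs. Adding it was among the 16 alternatives, and Acadvl did not pass there. Its part in the Acadvl and Cpt2 values was not tested further. Cpt2 stood at 36.3, 42.3 and 37.4 CPM in CKO, against 28.1, 27.6 and 35.0 CPM in FLOX (0.29 ± 0.12, adjusted p = 0.190). Cpt1a stood at 58.0, 38.6 and 28.6 CPM in CKO, against 58.6, 47.7 and 40.6 CPM in FLOX; both groups spanned wide ranges that overlapped (-0.31 ± 0.25, adjusted p = 0.497). Cpt1b had a log2 fold change of 0.11 (adjusted p = 0.739).

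Most adipocyte-like nuclei fell into 3 clusters with different makeup in the 2 groups. The cluster led by Pck1, Cfd and Ces1f held 49.5%, 60.5% and 57.3% of adipocyte-like nuclei in CKO, against 15.1%, 17.8% and 28.4% in FLOX, and had the lowest median depth (4986 UMIs, against 8914 in the cluster led by Gabrr2 and Rgs7 and 12789 in that led by Mageb18 and Ptchd4). The members differed between these clusters, as the mean of 6 libraries in the order Pck1, Gabrr2, Mageb18: Acadvl stood at 11.4, 6.1 and 8.0 CPM, Cpt2 at 44.8, 25.05 and 36.1 CPM, and Cpt1a at 29.6, 43.7 and 56.7 CPM. Acadvl and Cpt2 were thus highest, and Cpt1a lowest, in the cluster that was larger in CKO. With the 3 clusters given equal weight in each library, the log2 ratio of the Acadvl means was 0.41 instead of 0.57, with groups still apart, and that of Cpt2 was 0.20, with groups overlapping.

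Within the clusters no member passed the test, against 0.202%, 0.203% and 0.124% of genes called in the Pck1, Gabrr2 and Mageb18 clusters. In the Pck1 cluster 2 members did not overlap, against 18.7% of genes. Acadvl there stood at 12.7, 13.5 and 15.1 CPM in CKO, against 10.9, 6.31 and 9.59 CPM in FLOX (log2 fold change 0.60, adjusted p = 0.266), and Cpt1b at 10.96, 8.04 and 8.77 CPM in CKO, against 5.47, 4.31 and 6.47 CPM in FLOX (0.70, adjusted p = 0.256). Both were higher in every CKO library. In the Gabrr2 cluster Hadhb, at 75.2, 65.9 and 66.0 CPM in CKO against 80.1, 76.8 and 88.6 CPM in FLOX, was the single member without overlap (-0.28, adjusted p = 0.281; 19.2% of genes), and in the Mageb18 cluster it was Cpt2, at 39.3, 39.2 and 40.1 CPM in CKO against 31.5, 30.1 and 36.2 CPM in FLOX (0.24, adjusted p = 0.417; 18.7% of genes). Acadvl had log2 fold changes of 0.26 and 0.16 in the Gabrr2 and Mageb18 clusters, with overlapping groups.

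**Figure D4:**
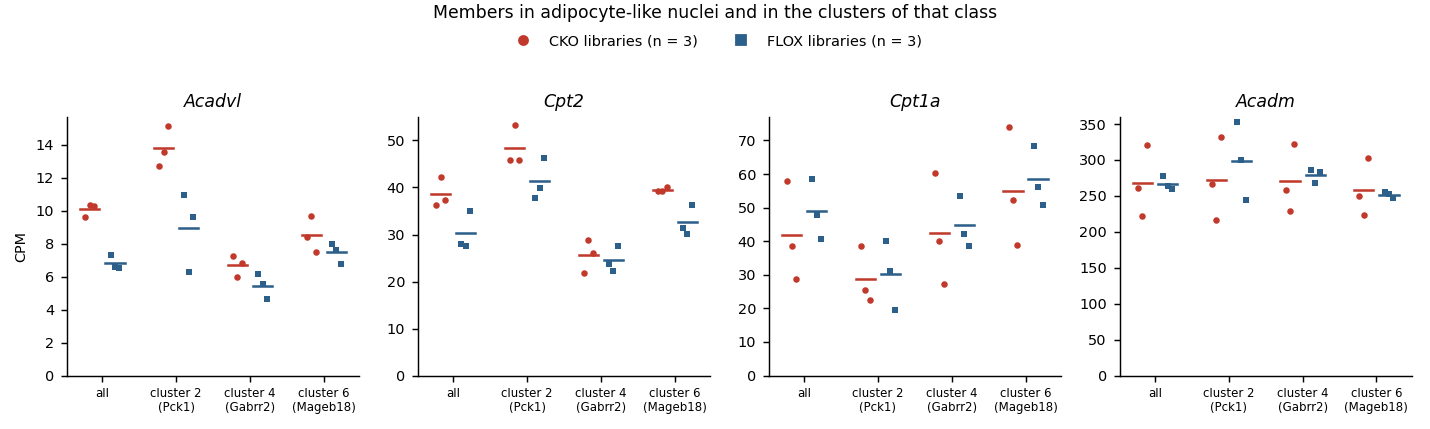
CPM of Acadvl, Cpt2, Cpt1a and Acadm in all adipocyte-like nuclei and in 3 of their clusters; red circles are CKO libraries, blue squares FLOX libraries, lines their means. Acadvl of CKO lies above FLOX in all adipocyte-like nuclei and in the Pck1 cluster, and overlaps in the other two.

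Thermogenic fat burns fatty acids by this pathway, so a list of 9 brown or beige adipocyte markers is given beside Acadvl and Cpt2. Summed in adipocyte-like nuclei it stood at 85.4, 77.6 and 67.6 CPM in CKO, against 41.6, 58.9 and 50.7 CPM in FLOX. Most of it was Ppargc1a, a coactivator of oxidative genes that white adipocytes also express, at 69.5, 67.5 and 55.9 CPM in CKO, against 34.6, 51.1 and 42.1 CPM in FLOX. Cidea, at 9.98, 4.97 and 5.81 CPM in CKO against 3.54, 2.85 and 4.76 CPM in FLOX, and Cox8b, at 1.45, 1.75 and 2.08 CPM in CKO against 0.470, 0.385 and 0.600 CPM in FLOX, were also higher in every CKO library. Ucp1, the uncoupling protein that defines brown fat, was near 0 in both groups and overlapped, at 0.069, 0.508 and 0.918 CPM in CKO and 0.108, 0.866 and 0.231 CPM in FLOX. The other 5 markers overlapped as well. In this class 21.7% of genes were higher in every CKO library. Within the Pck1, Gabrr2 and Mageb18 clusters Ppargc1a and Cidea overlapped, and Cox8b was higher in every CKO library in the Pck1 cluster alone. Ppargc1a in the Pck1 cluster, larger in CKO, stood at 142.9, 122.2 and 92.5 CPM in CKO, against 100.3, 96.6 and 91.1 CPM in FLOX. It stood at 20.2 to 51.8 CPM in the Gabrr2 and Mageb18 clusters. The part of this list in the Acadvl and Cpt2 values was not tested.

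In macrophage-like nuclei both subunits of the trifunctional protein were lower in every CKO library, without passing the test. No member was called, against 1.22% of 12534 genes; 2 had an unadjusted p under 0.05. Groups did not overlap for these 2 members, against 18.9% of genes, or 10.9% in that direction. Hadha stood at 65.9, 88.6 and 66.4 CPM in CKO, against 102.0, 93.0 and 100.8 CPM in FLOX; CKO library 2 lay near the FLOX range and the others well below it (log2 fold change -0.40 ± 0.12, adjusted p = 0.124). It passed in 2 of 14 alternatives, at -0.41 with no filter on low counts (adjusted p = 0.0108) and at -0.55 without CKO library 2 (adjusted p = 0.0285). Hadhb stood at 39.8, 50.4 and 41.6 CPM in CKO, against 54.2, 55.7 and 57.5 CPM in FLOX, with library 2 again the highest of CKO (-0.32 ± 0.11, adjusted p = 0.210). Cpt1a, highest of all classes here, stood at 158.9, 149.0 and 146.4 CPM in CKO, against 155.4, 144.8 and 181.2 CPM in FLOX (-0.07, adjusted p = 0.854).

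Hadha also differed between macrophage-like clusters, and so did their shares. The cluster led by Atp6v0d2 and Fat3, which also showed Gpnmb and Trem2, genes of lipid-laden macrophages, held 15.5%, 34.3% and 17.5% of macrophage-like nuclei in CKO, against 47.8%, 42.8% and 37.5% in FLOX. Hadha there stood at 112.8, 115.1 and 88.2 CPM in CKO, against 132.5, 125.8 and 148.0 CPM in FLOX (log2 fold change -0.34, adjusted p = 0.475). In the cluster led by F13a1 and the scavenger receptor gene Cd163, Hadha stood at 50.2, 64.2 and 59.7 CPM in CKO, against 58.6, 59.1 and 59.3 CPM in FLOX (-0.02, adjusted p = 0.986). No member passed in either cluster, against 0.208% of genes called in the Atp6v0d2 cluster and 0.00958% in the F13a1 cluster, and in the Atp6v0d2 cluster both Hadha and Cpt2 were lower in every CKO library, against 7.33% of genes. CKO library 2 thus had both the largest CKO share of the Hadha-rich cluster and the highest CKO Hadha level. With the 3 macrophage-like clusters given equal weight, the log2 ratio of the Hadha means was -0.21 instead of -0.42, with groups overlapping, and that of Hadhb was -0.20 instead of -0.34, with groups apart.

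**Figure D5:**
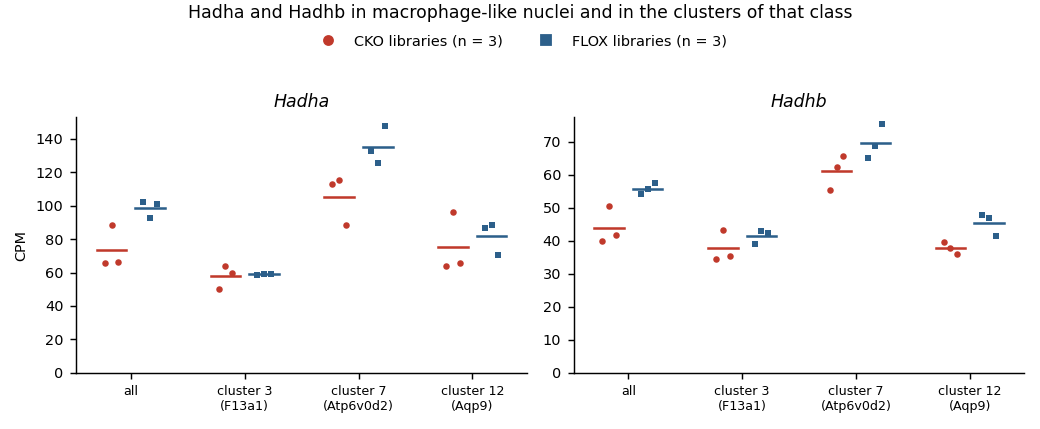
CPM of Hadha and Hadhb in all macrophage-like nuclei and in 3 of their clusters; red circles are CKO libraries, blue squares FLOX libraries, lines their means. Hadha in the Atp6v0d2 cluster lies between 88.2 and 148.0 CPM, above the 50.2 to 64.2 CPM of the F13a1 cluster.

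Adipocyte markers also differed in macrophage-like nuclei, where all 10 had UMIs. They summed to 1158 to 1763 CPM in CKO and 2102 to 2582 CPM in FLOX. In adipocyte-like nuclei themselves they summed to 36419.5 to 45094 CPM in CKO and 35935 to 38518 CPM in FLOX. The list includes Pparg, at 340.9 ± 84.1 CPM in macrophage-like nuclei (mean ± SD of all 6 libraries). Whether macrophage-like nuclei transcribe some of these markers themselves was not tested, nor was the part of the sum in the Hadha and Hadhb values. Hadha in adipocyte-like nuclei stood at 119.9, 105.4 and 115.6 CPM in CKO and 108.9, 97.3 and 104.3 CPM in FLOX, a range that overlaps the macrophage-like nuclei of FLOX.

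The single call was Cpt1a in T cell-like nuclei, which in CKO stood at 0.601 of the FLOX level: 72.9, 80.1 and 68.0 CPM in CKO, against 126.2, 122.1 and 116.5 CPM in FLOX. The groups lay wide apart, with means of 73.7 ± 6.1 CPM in CKO and 121.6 ± 4.9 CPM in FLOX (SD, n = 3 each; log2 fold change -0.73 ± 0.19, adjusted p = 0.0260). It rests on 324 UMIs in CKO and 99 in FLOX, and 4.14% of 6964 genes were called in this class, 3.03% as lower. The log2 fold change lay between -0.79 and -0.52 in all 14 alternatives, but it passed in 3 of them; DESeq2 gave an adjusted p of 0.139, and leaving out any library other than CKO library 2 ended the call. The class held 1303, 387 and 759 nuclei in CKO and 205, 104 and 166 in FLOX. With finer clusters (Leiden resolution 2), where Cpt1a did not pass, it held 978, 239 and 557 in CKO and 67, 35 and 84 in FLOX. Subsets of T cell-like nuclei were not separated, so an unlike mix and a change within them cannot be told apart.

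Cpt1a was on average higher in macrophage-like and monocyte-like than in T cell-like nuclei, so marker sums of those classes are given beside it. Summed in T cell-like nuclei, the 10 macrophage markers stood at 84.0, 133.5 and 110.3 CPM in CKO, against 297.6, 231.4 and 107.3 CPM in FLOX, and the 8 monocyte markers at 368.7, 464.0 and 457.0 CPM in CKO, against 730.4, 745.7 and 558.0 CPM in FLOX. The 10 adipocyte markers stood at 530.1 to 799.4 CPM in CKO and 1217 to 1686 CPM in FLOX. No marker of these lists was at 0 in all 6 libraries, and their part in the Cpt1a value was not tested.

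Of the 9 members, 6 had enough UMIs for the test in T cell-like nuclei (not Cpt1b, Cpt2 and Acadvl), and all 6 log2 fold changes were below 0, against 49.3% of genes. Besides Cpt1a, Etfdh was lower in every CKO library, at 28.3, 26.7 and 29.1 CPM, against 42.1, 38.6 and 46.0 CPM in FLOX (-0.59 ± 0.30, adjusted p = 0.326); 10.6% of genes did not overlap in that direction. Acadl stood at 38.9, 56.7 and 47.2 CPM in CKO, against 75.1, 70.7 and 49.1 CPM in FLOX, overlapping (-0.48, adjusted p = 0.380).

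In ASPC-like nuclei, the precursor class of adipocytes, no member was called, against 0.268% of genes, and 3 were lower in every CKO library, against 8% of genes. Acadm stood at 51.0, 45.8 and 51.8 CPM in CKO, against 61.5, 59.9 and 57.0 CPM in FLOX (-0.27 ± 0.09, adjusted p = 0.301). Acadl stood at 61.5, 58.3 and 59.9 CPM in CKO, against 65.0, 67.3 and 68.4 CPM in FLOX (-0.16, adjusted p = 0.502). Hadhb stood at 48.5, 43.9 and 47.8 CPM in CKO, against 51.2, 51.4 and 50.3 CPM in FLOX (-0.13, adjusted p = 0.654). These are the 3 genes that did not overlap in whole tissue either, with smaller differences here.

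Endothelial-like nuclei gave no call among 8 members tested, against 0.153% of genes, and every member overlapped, while 14.3% of genes did not. B cell-like nuclei gave none among 8, against 0.0958% of genes; Acadm averaged 56.1 ± 4.7 CPM in CKO and 80.8 ± 20.8 CPM in FLOX without overlap, against 6.9% of genes in that direction (-0.40 ± 0.21, adjusted p = 0.621). Among 5 members tested in mural-like nuclei none was called, as was none of all 5268 genes by edgeR (266 at an unadjusted p under 0.05); Acadl averaged 68.5 ± 7.6 CPM in CKO and 94.5 ± 11.7 CPM in FLOX without overlap, against 6.17% of genes (-0.48 ± 0.28, adjusted p = 0.941). Dendritic-like nuclei allowed a test of Cpt1a and Acadl (8.78% of genes called) and monocyte-like nuclei of Cpt1a alone, and neither gave a call.

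The difference of the CKO over FLOX change between classes was tested as an interaction, adipocyte-like minus another class, and no member passed, in a test that recovered 33.3% of simulated 2-fold differences against macrophage-like nuclei; 1.19%, 1.03% and 0.773% of genes passed against ASPC-like, macrophage-like and endothelial-like nuclei. The lowest adjusted p was that of Cpt2 against ASPC-like nuclei (difference of log2 fold changes 0.51 ± 0.13, adjusted p = 0.0868). Hadha against macrophage-like nuclei differed by 0.52 ± 0.15 (adjusted p = 0.106), or 0.73 without CKO library 2 (adjusted p = 0.0239), and Acadvl by 0.79 ± 0.28 (adjusted p = 0.179).

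Cpt1a and Cpt1b catalyse the same step, and the Cpt1b share of their summed UMIs was followed as a single value per library. In adipocyte-like nuclei it was 12.5%, 14.4% and 17.3% in CKO, against 8.62%, 10.9% and 14.6% in FLOX, a difference of 3.34 percentage points with overlapping groups (exact two-sided permutation test, p = 0.3; the smallest p that 3 against 3 allows is 0.1). In whole tissue it was 6.72%, 7.61% and 8.59% in CKO, against 6.13%, 7.27% and 8.32% in FLOX (exact permutation p = 0.7), and in macrophage-like nuclei 1.59%, 2.73% and 3.64% in CKO, against 3.11%, 3.48% and 4.26% in FLOX (exact permutation p = 0.3). Pooled over libraries, with 95% Clopper-Pearson intervals that cover counting error only, the share was 89.7% (75.8% to 97.1%, 35 of 39 UMIs) in skeletal muscle-like nuclei, 22.0% (19.5% to 24.7%) in the Pck1 adipocyte-like cluster and 10.4% and 10.2% in the Gabrr2 and Mageb18 clusters.

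Beyond the 9 members, 72 other genes of the pathway were followed in 9 lists, from uptake to transcriptional control. Of these 72, 42 were highest in adipocyte-like nuclei, against 12.7% of 10381 genes with a mean of at least 10 CPM; among them were 9 of 14 other mitochondrial β-oxidation enzymes (Acads, Hadh and Decr1 for example) and 9 of 12 peroxisomal genes. In whole tissue 55 of the 72 had a log2 fold change below 0 and 17 above, with a median of -0.18 against 0.01 for all genes, and none was called. By list, 9 of 10 uptake and activation genes were below 0 (median -0.25), as were 12 of 14 other mitochondrial enzymes (-0.16), 9 of 12 peroxisomal genes (-0.34) and 12 of 15 regulators (-0.11). Genes at the ends of their lists did not pass: Acaa1b (-0.92 ± 0.13, adjusted p = 0.0579), Fabp5 (-0.91 ± 0.24, adjusted p = 0.0744) and Etfa, a subunit of the flavoprotein that Etfdh oxidises (-0.37 ± 0.07, adjusted p = 0.0599), lay lowest in their lists, and Acsl5 (0.49 ± 0.13, adjusted p = 0.0710) and Plin5 (1.02 ± 0.25, adjusted p = 0.0667) highest in theirs. The widest difference was that of Bdh1, which interconverts ketone bodies, at 2.12, 1.18 and 2.93 CPM in CKO tissue, against 0.146, 0.021 and 0.588 CPM in FLOX tissue (2.99 ± 0.88, adjusted p = 0.0915), low in all 6 libraries and higher in every CKO library. Bdh1 averaged 15.0 CPM in T cell-like and 0.062 CPM in adipocyte-like nuclei. T cell-like nuclei gave on average 4.39% of UMIs in CKO and 0.605% in FLOX. Fabp5 was highest in endothelial-like nuclei (343 CPM), which gave 2.61% of UMIs in CKO and 4.63% in FLOX. The part of makeup in the Bdh1 and Fabp5 values was not tested. In adipocyte-like nuclei the split was 31 below and 39 above among 70 tested, with a median of 0.03.

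In adipocyte-like nuclei 2 of the 70 passed, in opposite directions, against 2.66% of all genes tested there. Plin5, which coats lipid droplets and tethers them to mitochondria, rose to 22.8, 14.3 and 21.8 CPM in CKO, against 7.81, 4.62 and 8.77 CPM in FLOX (1.41 ± 0.28, adjusted p = 0.0479, past the threshold in 6 of 16 alternatives). Acaa1b, a peroxisomal thiolase, fell to 64.3, 60.1 and 53.1 CPM in CKO, against 92.9, 88.5 and 75.0 CPM in FLOX (-0.60 ± 0.10, adjusted p = 0.0337, past it in 10 of 16). Neither gene's groups overlapped, as was so for 30.8% of genes. Neither gene passed with the unnamed Alb cluster added. The adipocyte-like clusters differed in share between the groups, and their part in the Plin5 and Acaa1b values was not tested. Ppara, the nuclear receptor that drives oxidation genes in liver, and Crat, the carnitine acetyltransferase, had log2 fold changes of 0.77 and 0.38 there and did not pass (adjusted p = 0.0643 and 0.0818). Nor did Esrrg (-0.71 ± 0.19, adjusted p = 0.0909) or Acacb, which makes the malonyl-CoA that inhibits Cpt1a and Cpt1b (0.66 ± 0.24, adjusted p = 0.160). Lowest and highest in 2 other lists with no call were Acad9 (-0.31) and Hsd17b10 (0.43) for other mitochondrial enzymes and Fabp5 (-0.39) and Slc27a1 (0.23) for uptake.

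Elsewhere, Esrrg, an orphan receptor of oxidative tissues, rose in endothelial-like nuclei to 25.3, 22.9 and 32.5 CPM in CKO, against 8.63, 4.54 and 4.54 CPM in FLOX (2.11 ± 0.33, adjusted p = 0.0180); with classes set by marker score it stood at 0.46 and did not pass (adjusted p = 0.886). Cd36, the fatty acid translocase, fell in dendritic-like nuclei (-1.94, adjusted p = 0.0244) and in T cell-like nuclei, to 95.9, 148.5 and 140.1 CPM in CKO, against 492.9, 244.3 and 242.2 CPM in FLOX (-1.44, adjusted p = 0.0245). Fabp5 (-1.47), Slc27a1 (-1.07) and Pparg (-2.08) were lower in CKO T cell-like nuclei as well, with adjusted p of 0.0454, 0.0181 and 0.00024. List genes called were 4 of 40 tested in T cell-like, 1 of 18 in dendritic-like and 1 of 57 in endothelial-like nuclei. Of all genes tested in these classes, 4.14%, 8.78% and 0.153% were called. Under the alternatives Fabp5 passed in 3 of 9 (-0.58 at its smallest), Slc27a1 in 7 of 14, Pparg in 12 of 13 and Cd36 in 10 of 14, and Cd36 of dendritic-like nuclei in 8 of 14. The adipocyte marker sum given above for T cell-like nuclei was also lower in CKO, but it includes Pparg itself. Its part in these 4 genes was not tested. No gene of the 9 lists passed in ASPC-like or macrophage-like nuclei, where 66 and 61 were tested; in macrophage-like nuclei Pparg came nearest (-0.57 ± 0.13, adjusted p = 0.0574).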

How the data were processed

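Nuclei of subcutaneous white adipose tissue from 3 CKO and 3 FLOX mice were isolated on a sucrose gradient, sorted by DAPI and sequenced with 10x 3′ chemistry, per the labels' protocols. The authors deposited UMI counts per gene and barcode, not normalized; Cell Ranger 7.1 and the builds mm10 and GRCh38 are named in the submitters' processing notes, and whether introns were counted is not given in the sources used here. Gene positions were taken from GENCODE M21, which held 99.85% of the feature IDs. The promoter windows used RefSeq starts, which can differ from these positions, as for Cpt1a.

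Barcodes under 500 genes or over 5% mitochondrial UMIs were left out, and the barcodes with the highest Scrublet scores were removed as doublets, at 0.8% for each 1000 barcodes of a library. Nuclei were clustered with scanpy 1.11.5 (3000 variable genes, 40 components, 20 neighbours, Leiden resolution 1). A cluster was named from 21 marker lists when at least 3 markers, and 50% of the list, were at least 2-fold higher. The fold was that of CPM + 5 over the mean of the other clusters, and no rival list outside related cell types could reach 33%. A cluster also stayed unnamed if another list held more of its top genes or no own marker was among its 100 leading genes. The same held if its UMIs were low and no top gene was an own marker. The 3 libraries of each group were compared on UMIs summed per library and class, in classes of at least 20 nuclei per library, with edgeR 4.0.16 (TMM, filterByExpr, quasi-likelihood test, Benjamini-Hochberg adjustment over all genes tested, threshold 0.05). Interactions used the same model over the sums of 2 classes. DESeq2 1.42.0 was an alternative. The members and lists were chosen with earlier results of these data known. Genes named were all members, the 3 genes most like each, Gpsm1, list genes past the threshold in a class and, for lists with none, the lowest and highest in whole tissue or adipocyte-like nuclei where given; Acads, Hadh, Decr1 and the whole-tissue values of Acaa1b and Plin5 were chosen after their values were seen. On simulated data with 200 changed genes, 2-fold changes were recovered for 89% of genes in whole tissue, 89% in adipocyte-like and 79% in macrophage-like nuclei, and changes of 0.5 on the log2 scale for 15%, 16% and 14%; the interaction between adipocyte-like and macrophage-like nuclei recovered 33.3% and 0%. The simulation used the same dispersion, set by hand, for every gene and changed only genes with an expected count of at least 20. Its recovery rates are therefore not the power of these tests on the real counts. Same-numbered libraries of the 2 groups share only a number.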

Additional observations from a re-analysis of the deposited data

How the results depend on the processing

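Across 120 member values, 1366 alternative fits gave 1232 with the same direction and the same side of the threshold, 11 that lost it, 8 that gained it, and 115 with the other sign where neither fit passed; no called value changed sign. In whole tissue 3 members passed with DESeq2 and 0 in the main analysis. In the classes, where 1 member passed, the count was 2 with the library total alone, 0 with the replicate block, with nuclei of at least 1000 genes, with Leiden resolution 2 and with classes set by marker score, and 0 to 2 when 1 library was left out; for the interactions that range was 0 to 1. Over the pathway lists, 8 calls became 17 with DESeq2, 22 with no filter on low counts, 4 at resolution 2, 2 by marker score and 1 to 12 with 1 library left out. The difference in Cpt1b share in whole tissue changed sign with 1 library left out (-0.15 to 0.945 percentage points, -0.068 and -0.15 the negative ones). The cause was not tested.

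Counts over all genes moved far more: the 8 genes of whole tissue became 1 with the library total alone, 3336 with DESeq2, 274 with no filter, 15 with nuclei of at least 1000 genes, 786 without the unnamed Alb cluster, 196 in the adipose classes alone and 949 with the replicate block, and the 420 of adipocyte-like nuclei became 1312 with DESeq2, 735 with no filter, 132 by marker score, 248 with nuclei of 3000 to 8000 UMIs and 4 with the Alb cluster added. The 153 of macrophage-like nuclei became 365, 1104, 75 with the block, 100 with no doublet removed, 0 at resolution 2 and 9 by score; the 288 of T cell-like nuclei became 189, 549, 21 and 181 (DESeq2, no filter, resolution 2, score). With 1 library left out, the whole-tissue count was 3424 without CKO library 2 and 0 without any other; the adipocyte-like count was 0 without CKO 2 or FLOX 1, 3 without CKO 3, 2 without FLOX 2, 238 without FLOX 3 and 528 without CKO 1. The macrophage-like count was 411 without CKO 2, 3 to 11 without CKO 1, CKO 3 or FLOX 1, 70 without FLOX 3 and 148 without FLOX 2, and the T cell-like count 145 to 366. The background shares set beside the members move with them. Deviations of same-numbered libraries correlated at 0.008, 0.246 and 0.075 in whole tissue. The library total alone moved the median of all genes in whole tissue to 0.10, against 0.01. Depth was lowest in monocyte-like (59430 to 292139 UMIs per library), dendritic-like (88167 to 737347) and mural-like nuclei (144772 to 536999), where 1, 2 and 5 members could be tested, and the T cell-like call rests on 155559 to 2441028.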
